A study of Mus musculus with 16 samples.

Results

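Genes of DNA replication licensing, the replication fork and its checkpoint were followed through 16 arrays of mouse B cells. The set holds 52 genes named by symbol, and 48 of them have a transcript cluster under their own symbol among the 14860 genes tested. Pcna, Rfc2, Rpa3 and Lig1 are not analysed here. Each of the 48 genes has 1 transcript cluster, so its value is a single row of the table.

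The samples were of 4 kinds, 1 array each, from mice of a C57BL6/129 hybrid background. Normal B cells came from spleen, with 2 samples of genotype p53(-/-) (here p53-null) and 2 of genotype p53(246/-) (here p53-246). Myc-induced B lymphoma cells came from lymph nodes, with 6 samples of each genotype. No group carries an allele labelled wild type, so every control lacks it too, and p53-246 cells differ from p53-null cells by a single allele, called mutant in the series title. The Myc construct, the promoter that drives it and the age of the mice are not given in the sources used here. Cells were isolated by magnetic depletion of other cells. Tissue of origin differs exactly as cell type does, so lymphoma and lymph node cannot be told apart. The labels do not say that the samples of a group are separate animals, so a p-value here reflects sample-to-sample spread that may be technical.

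DNA replication starts from origins marked by the origin recognition complex, on which Cdc6 and Cdt1 load the ring-shaped MCM helicase while geminin (Gmnn) holds Cdt1 back. The kinase Cdc7 with its activator Dbf4, together with Cdc45, the GINS complex and Mcm10, turns the loaded ring into a moving helicase, behind which polymerases copy the strands with the help of the clamp, its loader and the single-strand binding protein RPA. Claspin, Timeless and Tipin travel with the fork and pass signals of stalling to the kinase Chek1. Resting lymphocytes are out of the cell cycle, and many of these genes are known targets of the E2F factors that act at its restart.

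All values are log2 intensities, so a difference of 1 is a 2-fold change. The B cell label was checked with 8 B cell markers, whose mean was 10.05 to 10.41 in normal samples and 8.63 to 9.69 in lymphomas. Of the 8 markers 6 fell and 1 rose in lymphomas (median -1.18), where 17.8% of all genes fell and 20.4% rose (median -0.09). Cd79b had means of 12.0 and 11.1, Pax5 of 10.4 and 9.36 and Ms4a1 of 11.8 and 9.19 in normal and lymphoma samples, while Vpreb3 rose from 8.89 to 10.02. A narrower spread over genes was found on 2 arrays, p53-null normal sample 1 (SD 1.57) and p53-246 lymphoma 6 (SD 1.56), against 1.69 to 1.94 on the others. A value of 5.17, the 95th percentile of the means of 799 olfactory and vomeronasal receptor genes, is taken below as the background cutoff. Differences were tested with limma over all 14860 genes, and a gene is said to have risen or fallen where its adjusted p is under 0.05.

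Nearly the whole replication set was higher in lymphomas. Of the 48 genes 47 rose and 0 fell in lymphomas against normal B cells with the genotypes averaged (12 and 4 samples), where 20.4% of all genes tested rose and 38.3% changed in either direction. By measured difference 41 of them rose by 2-fold or more, against 8.96% of all genes. The 41 include Fen1, under the background cutoff in every group, and Timeless, under it in normal cells, and with values under the cutoff counted as the cutoff 39 remained at 2-fold or more. The median log2 difference of the set was 2.22, beside -0.09 for all genes (2.03 with dim genes counted in the same way), with a range from -0.06 for Orc4 to 4.22 for Chek1. In 46 of the 48 genes each lymphoma lay above each normal sample, which holds for 13.5% of all genes. The mean over the set was 6.22 to 6.34 on the normal arrays and 7.89 to 8.46 on the lymphoma arrays. In bulk samples a larger share of dividing cells and more RNA per cell cannot be told apart. The 9 measured proliferation markers outside the set, among them Mki67 and Ccna2, also all rose, with a median of 3.02.

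**Figure D1:**
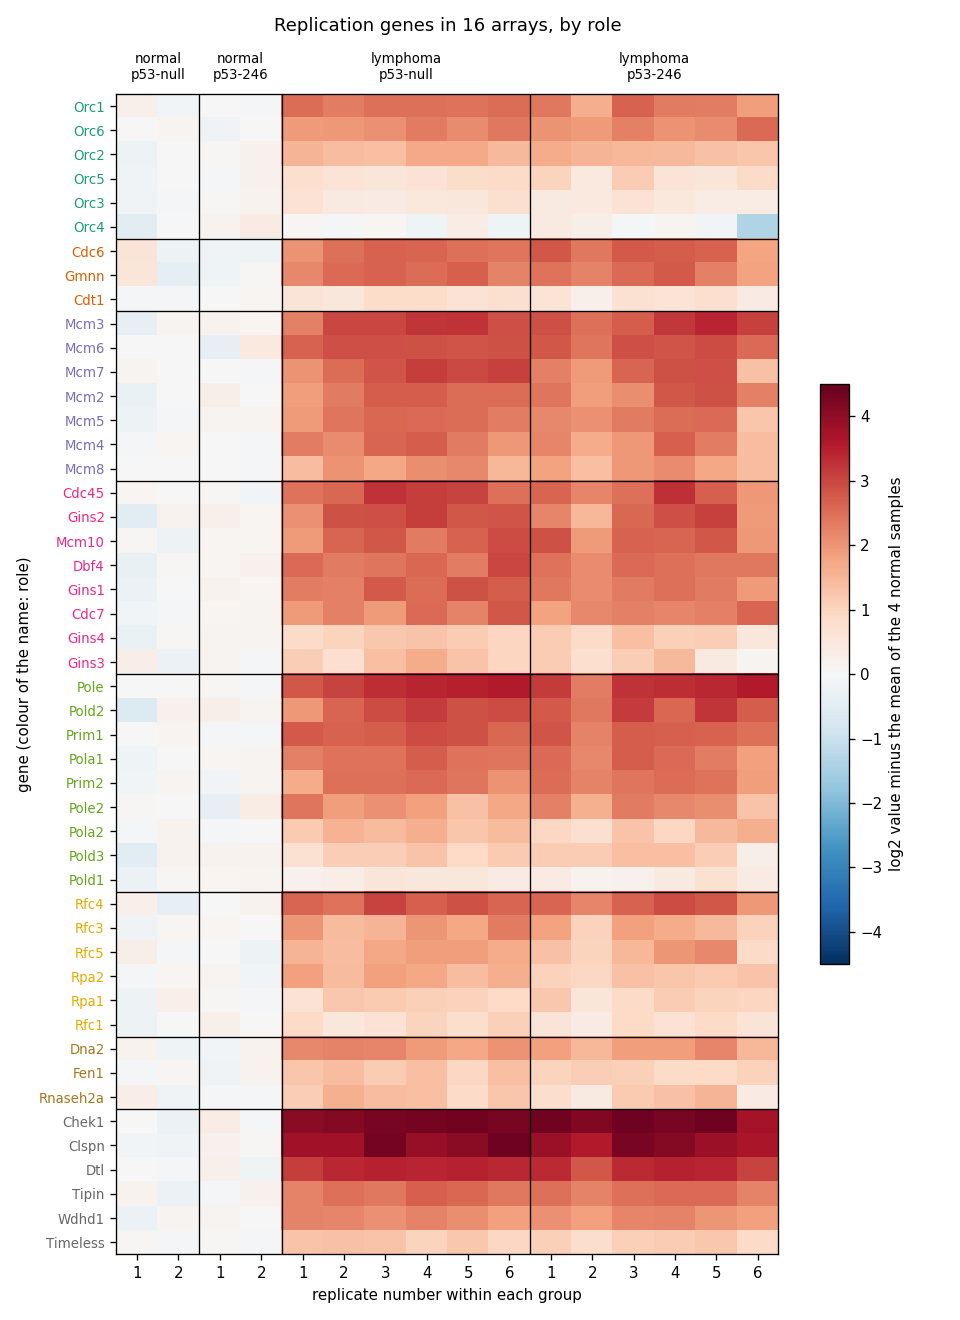
Each row is a replication gene and each column an array, and the colour gives the log2 value minus the mean of the 4 normal samples of that gene. Rows are grouped by role (colour of the name) and ordered within a role by their difference; the lymphoma columns are red in most rows, palest in Orc4, Orc3, Cdt1 and Pold1, and Chek1, Clspn and Dtl are the darkest rows.

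Promoters of the set were searched for 4 short motifs, since the genes moved together. RefSeq windows from 250 bases before to 50 bases after the start (assembly GRCm38.p6, first listed window of a gene) matched 40 of the 48 genes by symbol. An E2F motif, searched as TTTCCCGC, TTTCGCGC, TTTGCCGC or TTTGGCGC on either strand, was present in 17 of 40 promoters (42.5%), against 2.32% of 27025 promoters of all genes and 2.92% of 17491 promoters of protein-coding genes. The CCAAT box was present in 22 (55%, against 37.9% of all genes), the CHR motif TTTGAA in 6 (15%, against 18.1%) and the E-box CACGTG, which Myc can bind, in 4 (10%, against 7.24%). The median GC content was 61.8% in the windows of the set and 58.3% in those of the other genes tested. The E2F matches were in Orc1 and Orc3, Cdc6 and Cdt1, Mcm3, Mcm5, Mcm6, Mcm7 and Mcm8, Gins3, Pola1, Pold1, Pold3 and Pole2, Rfc3, Clspn and Dtl. The median log2 difference was 2.26 in the 17 genes with an E2F match and 1.92 in the 23 without. Both groups ran from small to large values (0.38 to 3.97 and -0.06 to 4.22). For the CCAAT box the medians were 2.36 in the 22 genes with a match and 1.43 in the 18 without. For CHR they were 2.34 (6 genes) and 1.92 (34 genes), and for the E-box 1.13 (4 genes) and 2.20 (36 genes). A match describes letters and not a bound site.

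**Figure D2:**
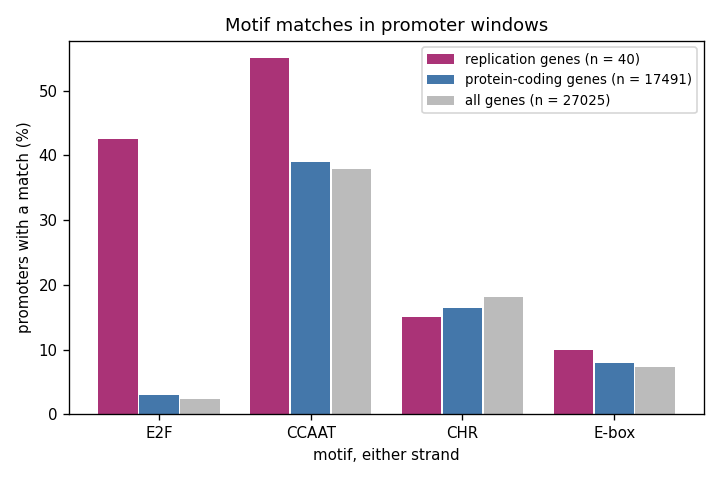
Bars give the percentage of promoter windows with at least 1 match to each motif on either strand, for the replication genes, protein-coding genes and all genes of the RefSeq table. The E2F bar of the replication genes, at 42.5%, stands far above the 2.92% and 2.32% of the other groups, while the bars of CHR and the E-box differ by a few percentage points.

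The windows below belong to the gene with the largest measured difference of each role and to Orc4, the gene with the smallest; Pole has none here. They are written 5′ to 3′ on the strand of the gene, and capitals mark the E2F motifs and CCAAT boxes above on either strand, where the reverse complement of a motif is also in capitals. E2F letters stand in Mcm3, Cdc6 and Orc1, and CCAAT boxes in Mcm3, Orc1 and Cdc45. Neither motif is present in full, as searched, in the windows of Chek1, Rfc4, Dna2 and Orc4. The Chek1 window ends in gcgggaa, the start of the searched reverse complement GCGGGAAA, so a match across its edge could not be counted. The Rfc4 window holds gcgggaac, which differs from GCGGGAAA in the last letter.
Chek1 (chr9:36726609-36726908, minus strand): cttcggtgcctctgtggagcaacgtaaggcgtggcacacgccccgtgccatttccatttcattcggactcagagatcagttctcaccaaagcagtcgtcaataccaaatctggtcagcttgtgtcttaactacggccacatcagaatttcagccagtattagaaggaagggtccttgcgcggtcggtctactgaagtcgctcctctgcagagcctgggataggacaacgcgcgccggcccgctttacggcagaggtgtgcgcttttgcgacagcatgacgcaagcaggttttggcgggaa
Mcm3 (chr1:20820263-20820562, minus strand): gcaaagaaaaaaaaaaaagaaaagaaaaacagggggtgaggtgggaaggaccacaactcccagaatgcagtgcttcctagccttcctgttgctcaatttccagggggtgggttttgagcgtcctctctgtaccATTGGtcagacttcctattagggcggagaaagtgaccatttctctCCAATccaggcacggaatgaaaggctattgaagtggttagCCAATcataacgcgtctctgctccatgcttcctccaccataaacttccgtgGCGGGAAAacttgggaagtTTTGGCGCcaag
Cdc45 (chr16:18811923-18812222, minus strand): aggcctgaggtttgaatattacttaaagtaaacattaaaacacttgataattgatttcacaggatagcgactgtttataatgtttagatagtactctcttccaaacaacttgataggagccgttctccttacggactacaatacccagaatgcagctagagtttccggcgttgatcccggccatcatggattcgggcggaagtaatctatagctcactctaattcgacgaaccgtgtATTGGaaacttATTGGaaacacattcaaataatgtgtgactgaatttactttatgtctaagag
Rfc4 (chr16:23127681-23127980, minus strand): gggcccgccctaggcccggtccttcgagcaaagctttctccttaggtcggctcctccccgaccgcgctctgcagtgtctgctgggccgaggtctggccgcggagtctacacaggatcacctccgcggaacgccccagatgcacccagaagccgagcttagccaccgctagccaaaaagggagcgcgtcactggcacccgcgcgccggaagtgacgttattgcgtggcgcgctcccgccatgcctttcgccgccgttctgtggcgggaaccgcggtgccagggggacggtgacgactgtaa
Cdc6 (chr11:98907901-98908200, plus strand): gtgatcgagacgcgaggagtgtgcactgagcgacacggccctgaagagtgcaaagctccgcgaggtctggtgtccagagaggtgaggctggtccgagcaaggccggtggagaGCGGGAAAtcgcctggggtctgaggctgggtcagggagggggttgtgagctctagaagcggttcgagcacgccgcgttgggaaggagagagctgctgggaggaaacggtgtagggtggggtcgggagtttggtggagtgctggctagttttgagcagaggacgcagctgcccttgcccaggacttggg
Orc1 (chr4:108579204-108579503, plus strand): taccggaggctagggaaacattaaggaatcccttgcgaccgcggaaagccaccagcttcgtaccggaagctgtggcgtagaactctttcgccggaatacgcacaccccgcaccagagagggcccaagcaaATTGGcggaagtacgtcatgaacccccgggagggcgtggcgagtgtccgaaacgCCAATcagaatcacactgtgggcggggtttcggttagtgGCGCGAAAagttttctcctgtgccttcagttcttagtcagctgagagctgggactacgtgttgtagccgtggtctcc
Dna2 (chr10:62946779-62947078, plus strand): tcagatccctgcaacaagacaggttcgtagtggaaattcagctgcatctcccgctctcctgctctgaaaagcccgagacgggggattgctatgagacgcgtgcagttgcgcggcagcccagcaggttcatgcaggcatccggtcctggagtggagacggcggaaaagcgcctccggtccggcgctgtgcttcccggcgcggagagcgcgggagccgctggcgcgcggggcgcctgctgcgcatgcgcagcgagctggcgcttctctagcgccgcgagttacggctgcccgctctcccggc
Orc4 (chr2:48950032-48950331, minus strand): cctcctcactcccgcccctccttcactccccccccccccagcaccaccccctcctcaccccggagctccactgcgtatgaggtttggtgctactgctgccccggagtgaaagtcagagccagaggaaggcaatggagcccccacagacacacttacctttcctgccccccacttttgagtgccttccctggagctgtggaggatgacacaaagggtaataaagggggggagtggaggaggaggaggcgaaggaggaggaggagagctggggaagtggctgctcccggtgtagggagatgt

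In the origin recognition complex 5 of 6 subunits rose and 1, Orc4, did not pass. Orc1, the largest subunit, had normal values of 5.04 and 4.69 (p53-null) and 4.77 and 4.71 (p53-246), and 6.43, 7.20 and 7.44 as the lowest, median and highest of the 12 lymphomas. Every lymphoma lay above every normal sample, and Orc1 rose by 2.32 on the log2 scale (SE 0.14, adjusted p = 6.6e-10). Orc4, an ATPase subunit, had 8.26, 8.71, 8.89 and 9.10 in normal samples and 7.38, 8.74 and 9.15 as the lowest, median and highest lymphoma. Its groups overlapped, and its difference of -0.06 (SE 0.23, 95% interval -0.54 to 0.42, adjusted p = 0.846) did not pass. Its lowest lymphoma value is that of the narrow array, p53-246 lymphoma 6, and with array spread as a covariate Orc4 passed downward (-0.58, adjusted p = 0.0152). Between these ends stood Orc6 (2.14, SE 0.12), Orc2 (1.48, SE 0.10), Orc5 (0.74, SE 0.12) and Orc3 (0.48, SE 0.09), which all rose. The normal mean of Orc1 lies under the background cutoff, so with normal values counted as no lower than the cutoff its rise is at least 3.88-fold.

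Of the licensing factors all 3 rose. The loading ATPase Cdc6 had normal values of 4.76 and 3.98 (p53-null) and 4.03 and 4.01 (p53-246), against a lowest, median and highest lymphoma of 5.99, 6.76 and 6.998. All normal values of Cdc6 are under the background cutoff, so its log2 difference of 2.49 (SE 0.18) is stated as at least 2.86-fold. Cdt1, its partner in loading the helicase, had 5.27, 5.29, 5.36 and 5.43 in normal samples and 5.57, 5.98 and 6.17 as the lowest, median and highest lymphoma. The groups of Cdt1 were apart by only 0.15, and the rise was 0.62 (SE 0.10, adjusted p = 0.000107). Gmnn, the inhibitor of Cdt1, rose by 2.40 (SE 0.17, at least 4.41-fold).

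The MCM helicase subunits all rose (7 of 7), with a median log2 difference of 2.42. Mcm3 had normal values of 5.81 and 6.33 (p53-null) and 6.37 and 6.28 (p53-246), and 8.47, 9.19 and 9.63 as the lowest, median and highest lymphoma. The gap between the highest normal and the lowest lymphoma value of Mcm3 was 2.10, and its difference was 2.95 (SE 0.18, 7.75-fold). Mcm6 followed with 2.79 (SE 0.13, 6.90-fold), then Mcm7 with 2.53 (SE 0.25, at least 3.99-fold), Mcm2 with 2.42, Mcm5 with 2.26 and Mcm4 with 2.18. These 6 proteins form the ring that is loaded at origins. The p53-null normal mean of Mcm2 (5.15) lies under the background cutoff, so its difference rests partly on background readings. Mcm8, a relative that works in recombination and not in the loaded ring, had 5.35, 5.33, 5.32 and 5.27 in normal samples and 6.66, 7.09 and 7.49 as the lowest, median and highest lymphoma. Its groups did not overlap, and it rose by 1.77 (SE 0.16).

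All 8 genes of origin firing rose by at least 2-fold. Cdc45, which joins the helicase at firing, had normal values of 5.49 and 5.41 (p53-null) and 5.46 and 5.31 (p53-246), and 7.37, 8.01 and 8.72 as the lowest, median and highest lymphoma, a rise of 2.68 (SE 0.20, 6.41-fold). Mcm10 rose by 2.51 (SE 0.19, at least 5.21-fold), Dbf4 by 2.46 (SE 0.12) and its kinase Cdc7 by 2.25 (SE 0.15). The GINS complex is part of the active helicase together with Cdc45. Gins2 and Gins1 rose by 2.56 (SE 0.24) and 2.41 (SE 0.13, at least 4.63-fold), and Gins4 and Gins3 by 1.04 (SE 0.13) and 1.01 (SE 0.21). Gins3 had 6.20, 5.66, 6.06 and 5.84 in normal samples and 6.05, 7.05 and 7.63 as the lowest, median and highest lymphoma. Besides Orc4 it is the only measured gene of the set whose lymphoma and normal values overlapped, through the low value of p53-246 lymphoma 6.

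The polymerase subunits all rose (9 of 9), from 1.30-fold to at least 8.98-fold. Pole, the catalytic subunit of the leading strand polymerase epsilon, had normal values of 5.12 and 5.10 (p53-null) and 5.18 and 5.06 (p53-246), close to the cutoff, and 7.42, 8.43 and 8.68 as the lowest, median and highest lymphoma. Its rise of 3.22 (SE 0.18, adjusted p = 2.6e-10, at least 8.98-fold) was the largest outside the checkpoint group, and its partner Pole2 rose by 1.92 (SE 0.20). The Pole2 value of p53-246 normal sample 1 (4.87) lies under the background cutoff, so the Pole2 difference rests partly on background readings. Pold1, the catalytic subunit of the lagging strand polymerase delta, had 5.50, 5.81, 5.83 and 5.88 in normal samples and 5.90, 6.12 and 6.42 as the lowest, median and highest lymphoma. The groups of Pold1 were apart by 0.01 and its rise was 0.38 (SE 0.11, adjusted p = 0.0091). The Pold1 call was lost without the narrow arrays (0.30, adjusted p = 0.0594) and without p53-null normal sample 1 alone (0.30, adjusted p = 0.0727). Its partners Pold2 and Pold3 rose by 2.77 (SE 0.20, 6.82-fold) and 1.05 (SE 0.17). In the primase complex that starts each strand Prim1 rose by 2.68 (SE 0.11), Pola1 by 2.40 (SE 0.13), Prim2 by 2.30 (SE 0.15) and Pola2 by 1.29 (SE 0.15).

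Of the clamp loader and RPA 6 genes were measured, and 6 rose. Rfc4, a small subunit of the clamp loader, had normal values of 6.71 and 6.14 (p53-null) and 6.47 and 6.66 (p53-246), and 8.46, 9.14 and 9.53 as the lowest, median and highest lymphoma, a rise of 2.62 (SE 0.16, 6.16-fold). Rfc1, the large subunit, had 8.11, 8.34, 8.55 and 8.31 in normal samples and 8.69, 9.04 and 9.41 as the lowest, median and highest lymphoma. The groups of Rfc1 were apart by 0.14 and its rise was 0.74 (SE 0.12, 1.67-fold). Rfc3 rose by 1.65 (SE 0.18) and Rfc5 by 1.58 (SE 0.19). Of the single-strand binding protein, Rpa2 rose by 1.41 (SE 0.11) and Rpa1 by 0.98 (SE 0.13).

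The 3 measured genes of lagging strand maturation rose. Dna2, a nuclease and helicase, had normal values of 5.18 and 4.85 (p53-null) and 4.93 and 5.18 (p53-246), and 6.54, 6.93 and 7.26 as the lowest, median and highest lymphoma, a rise of 1.92 (SE 0.13, at least 3.45-fold). Rnaseh2a, which removes RNA primers, had 6.06, 5.57, 5.66 and 5.68 in normal samples and 6.11, 6.97 and 7.35 as the lowest, median and highest lymphoma. Its groups were apart by 0.05 and it rose by 1.09 (SE 0.19). The flap nuclease Fen1 rose by 1.11 (SE 0.10) with means of 3.83 and 4.95, but both lie under the background cutoff, so no fold is given.

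The 3 largest rises, of Chek1, Clspn and Dtl, were all in fork protection and the checkpoint, where 6 of 6 genes rose with a median of 2.87. The checkpoint kinase Chek1 had normal values of 5.52 and 5.26 (p53-null) and 5.89 and 5.49 (p53-246), and 9.29, 9.81 and 9.92 as the lowest, median and highest lymphoma. The highest normal and the lowest lymphoma value of Chek1 were 3.40 apart, the widest gap in the set, and the rise was 4.22 (SE 0.12, 18.6-fold, adjusted p = 7.6e-14). Claspin (Clspn), the adaptor through which Chek1 is activated, rose by 3.97 (SE 0.14, at least 13.8-fold), and Dtl, which directs the destruction of Cdt1 during replication, by 3.31 (SE 0.12, 9.92-fold). The lowest normal Dtl values, 5.13 (p53-null) and 5.02 (p53-246), lie under the background cutoff, so its fold rests partly on background readings. Tipin rose by 2.44 (SE 0.11, 5.41-fold) and the fork scaffold Wdhd1 by 2.07 (SE 0.11). Timeless, the binding partner of Tipin, had 5.07, 4.98, 5.09 and 4.999 in normal samples and 5.82, 6.15 and 6.35 as the lowest, median and highest lymphoma. Timeless rose by 1.09 (SE 0.10, at least 1.95-fold), the smallest difference of this group.

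**Figure D3:**
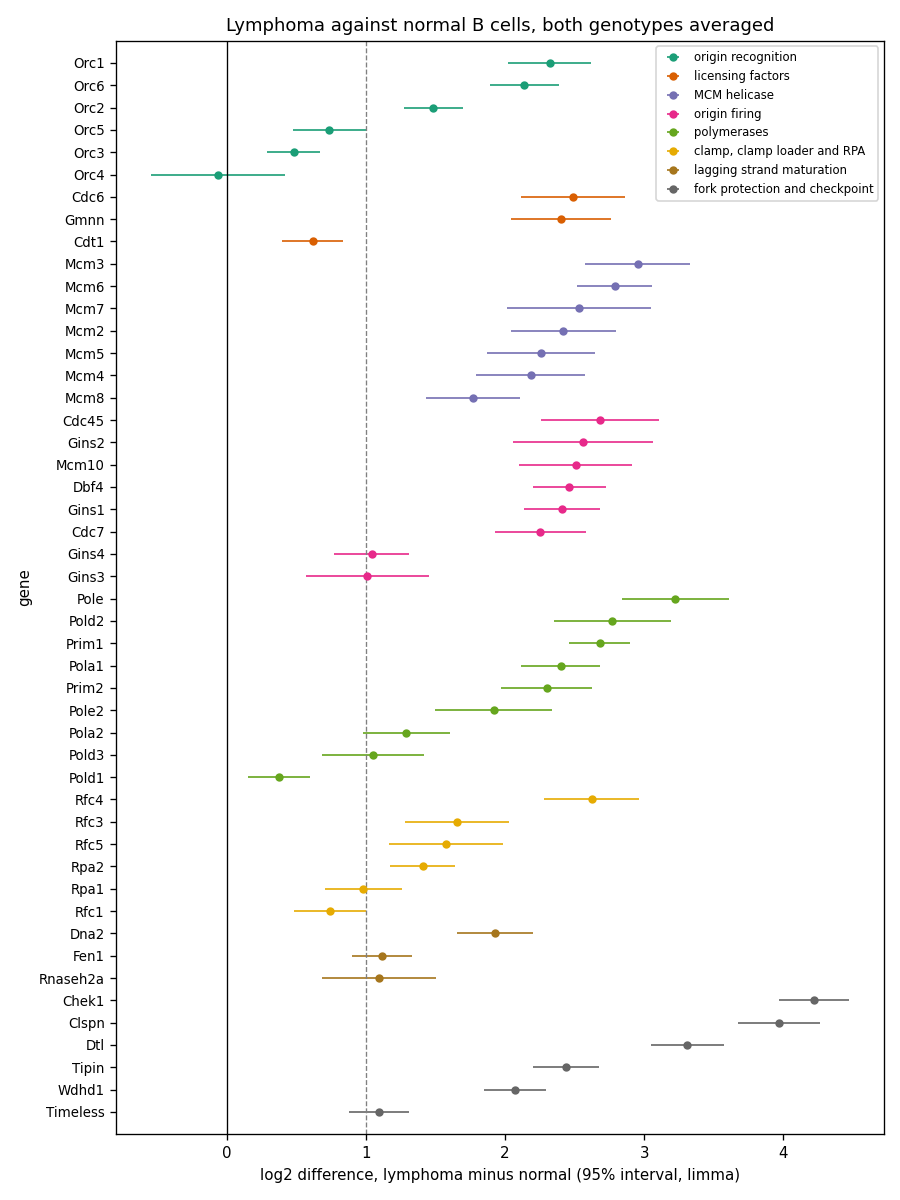
Points give the log2 difference of each replication gene, lymphoma minus normal with both genotypes averaged, and bars its 95% interval from limma; colours are roles and the dashed line marks 2-fold. All intervals but that of Orc4 lie above 0, and Chek1, Clspn and Dtl lie farthest to the right while the points of Orc3, Orc4, Orc5, Cdt1, Pold1, Rfc1 and Rpa1 lie left of the dashed line.

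Other genes of the pathway were read from 2 lists outside the set. Of 28 other replication genes 24 rose and 2 fell (median 0.82), where 20.4% of all genes rose and 17.8% fell. The largest rises were those of Uhrf1, which maintains DNA methylation behind the fork (3.69, SE 0.21), topoisomerase Top2a (3.26, SE 0.09) and the histone chaperone Asf1b (2.60, SE 0.24). The 2 that fell were Pold4, the small accessory subunit of polymerase delta (by 1.55, SE 0.22), and Stn1 of telomere end replication (by 0.48, SE 0.09). Pole4, an accessory subunit of polymerase epsilon, was at -0.18 (adjusted p = 0.467) and Donson at -0.25 (adjusted p = 0.133), and neither passed. Of 15 other checkpoint genes 9 rose and 2 fell (median 0.63), against the same 20.4% and 17.8%. The kinase Wee1 rose by 2.10 (SE 0.11), the phosphatase Cdc25a by 1.84 (SE 0.12) and the kinase Chek2 by 1.53 (SE 0.17). Rad9a of the checkpoint clamp fell by 0.73 (SE 0.11) and the clamp loader Rad17 by 0.43 (SE 0.16), while Atm (0.17), Cul4a (0.18), Smarcal1 (0.08) and Rad9b (-0.01) did not pass. The log2 differences of polymerase delta subunits ran from -1.55 for Pold4 to 2.77 for Pold2 on the same arrays.

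Markers of other cells moved between the same groups. Of these lists 5 of 6 macrophage, 5 of 5 platelet and 6 of 7 natural killer markers fell, where 17.8% of all genes fell, and 6 of 9 neutrophil markers rose, where 20.4% of all genes rose. Cd5 of 10 T cell and Epb42 of 5 erythroid markers fell, counts close to the share of all genes. The mean of 6 macrophage markers was 6.65 to 7.38 in normal samples and 4.85 to 6.19 in lymphomas, that of 5 platelet markers 5.93 to 7.03 and 4.36 to 5.09, and that of 7 natural killer markers 5.51 to 6.52 and 4.60 to 5.55. Neutrophil markers went the other way, with a mean over 9 genes of 4.57 to 5.69 in normal samples and 6.16 to 7.22 in lymphomas. Of this list Mpo and Elane lay under the background cutoff in both. S100a9 had means of 5.42 and 9.18. Under the cutoff in both were also Cd14 of the macrophage list, Ncr1, Gzmb and Prf1 of the natural killer list and Itga2b and Gp9 of the platelet list, Cd3d, Cd3g, Cd4, Cd28 and Themis of the T cell list and Epb42, Slc4a1, Klf1 and Kel of the erythroid list. The mean of the T cell markers was highest in p53-null lymphoma 6 (6.47) and in normal sample 2 of the same genotype (6.11), against 4.48 to 5.20 elsewhere. Without these 2 arrays 47 of the 48 replication genes again rose, with a median of 2.20. The part of macrophage, platelet, natural killer and neutrophil cells in the result was not tested.

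The rise was present within each genotype, and the averaged difference given above is the mean of these 2 differences. The measured differences of the genotypes share no array. Their calls are not separate, since the fit to all arrays gives both the same variance of a gene. In p53-null cells (6 lymphomas, 2 normal samples) 47 of 48 genes rose and 0 fell, where 17.5% of all genes rose and 14.4% fell (31.9% either way, and 42.2% at an unadjusted p under 0.05), and the median log2 difference was 2.27. In p53-246 cells (6 and 2) 44 rose and 0 fell, where 14.5% of all genes rose and 10.6% fell, and the median was 2.09. By measured difference the rise was 2-fold or more in 42 and 38 genes, against 9.99% and 8.19% of all genes. Orc4 did not pass in either, at 0.26 (SE 0.32) and -0.38 (SE 0.32). In p53-246 cells Orc3 (0.33, adjusted p = 0.0706), Gins3 (0.82, adjusted p = 0.0527) and Pold1 (0.25, adjusted p = 0.281) did not pass as well. Each lymphoma lay above each normal sample in 47 genes in p53-null and 46 in p53-246 cells, against 19.9% and 17.7% of all genes. Each lymphoma lay below each normal sample in 0 genes of the set in either genotype, against 18.6% and 15% of all genes. Over the 48 genes the differences of the 2 genotypes correlated at r = 0.98 (Spearman 0.94), as a description over genes that share their arrays.

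The measured rise was larger in p53-null than in p53-246 cells for 43 of the 48 genes. Of all 14860 genes, 7243 had the larger lymphoma minus normal difference in p53-null cells. The median of the difference of differences was -0.25 in the set, beside 0.0094 for all genes. Of the 36 genes above the background cutoff in both normal groups 33 had the larger rise in p53-null cells. The narrow arrays lie in the p53-null normal and the p53-246 lymphoma group. With array spread as a covariate the median was -0.14, with 38 of 48 genes larger in p53-null cells, and without the narrow arrays it was -0.18, with 36. Gins2 rose by 2.92 (SE 0.34) and 2.20 (SE 0.34) in p53-null and p53-246 cells. The interaction of genotype and cell type passed in 0 of the 48 genes and 0 of all genes in limma. At an unadjusted p under 0.05 it counted 1 gene of the set, Gins1 (-0.57, 95% interval -1.11 to -0.02), and 3.63% of all genes. Both normal means of Gins1 (4.84 and 5.09) lie under the background cutoff, so its value rests partly on background readings. The genes share their arrays, so their number does not stand for separate observations.

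**Figure D4:**
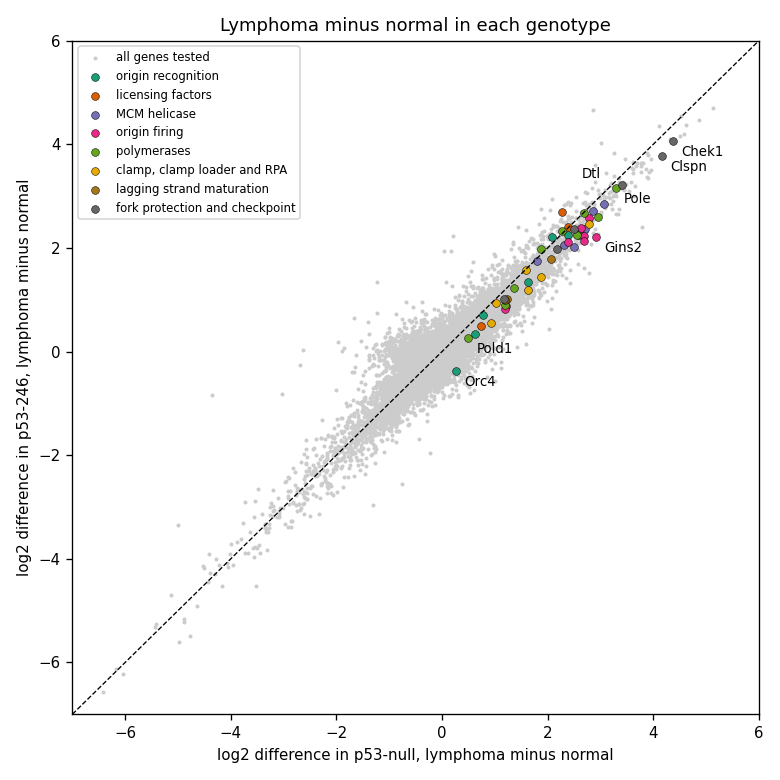
Each point is a gene, with its log2 difference, lymphoma minus normal, in p53-null cells on the horizontal and in p53-246 cells on the vertical axis; grey points are all genes tested and coloured points the replication genes by role. The replication genes follow the dashed line of equal difference (r = 0.98), and 43 of 48 lie below it.

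Between p53-246 and p53-null lymphomas (6 and 6) no replication gene passed. The differences ran from -0.49 for Rpa2 to 0.08 for Pole2, with a median of -0.12 beside 0.03 for all genes, and 40 of 48 were negative, while 6213 of all 14860 genes were. After quantile normalization the median was -0.05 and 32 genes were negative. In limma 0 of 48 and 0 of all genes passed after adjustment, and 3 genes of the set, Rpa2, Gins1 and Fen1, had an unadjusted p under 0.05, as did 2.99% of all genes. An unmoderated linear model also passed 0 of the set. The median 95% interval of a difference reached 0.30 to either side, and that of Mcm7, the gene with the widest spread among lymphomas, ran from -0.95 to 0.08.

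Rpa2, the middle subunit of RPA that is phosphorylated at stalled forks, had the smallest p of the set in this comparison. The p53-null lymphomas 1 to 6 had 8.63, 8.23, 8.64, 8.53, 8.18 and 8.42, and the p53-246 lymphomas 1 to 6 had 7.82, 7.71, 8.11, 8.05, 7.97 and 8.06. All p53-246 lymphomas thus lay below all p53-null lymphomas, which holds for 1 gene of the set and for 0.074% of all genes, and the opposite placement holds for 0.0202%. Rpa2 was picked by its p from the same values, so its placement is no separate result. The difference was -0.49 (SE 0.11, 95% interval -0.72 to -0.25, unadjusted p = 0.000386, adjusted p = 0.994), so it did not pass. In the other settings tried it ran from -0.54 to -0.41, with adjusted p from 0.834 to 1. In normal cells the p53-null samples had Rpa2 values of 6.74 and 6.87 and the p53-246 samples 6.90 and 6.65, which overlapped. Gins1 had a lowest, median and highest value of 7.22, 7.57 and 7.82 (p53-null lymphomas) and 6.87, 7.30 and 7.46 (p53-246 lymphomas), and Fen1 had 4.75, 5.13 and 5.23 against 4.68, 4.86 and 4.93. For Gins1 and Fen1 the groups overlapped, at -0.31 (SE 0.13) and -0.24 (SE 0.10). The Fen1 means of p53-null and p53-246 lymphomas (5.07 and 4.83) lie under the background cutoff, so the Fen1 difference rests partly on background readings.

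**Figure D5:**
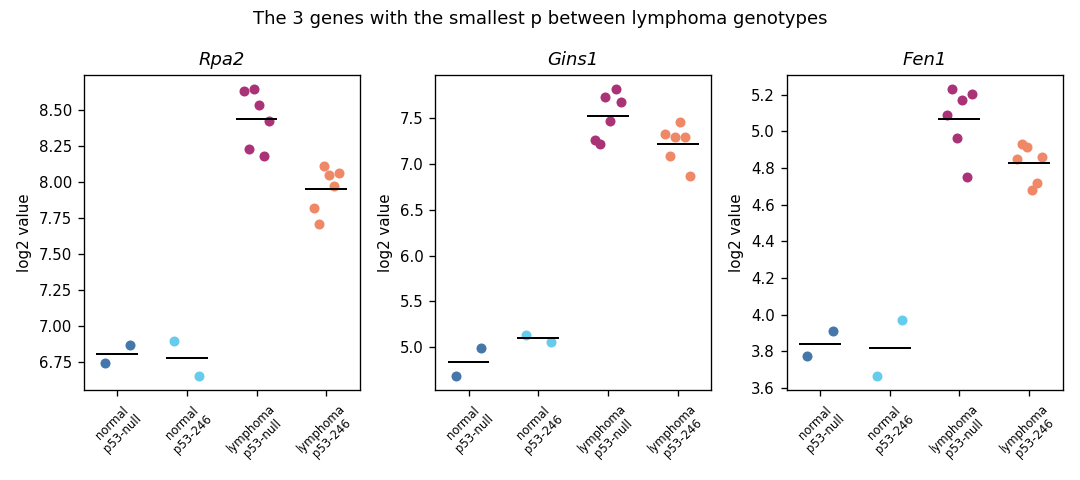
Points are samples and black lines group means of log2 values for Rpa2, Gins1 and Fen1, the 3 replication genes with the smallest p between lymphoma genotypes; each panel has its own vertical axis, which does not start at 0. The 6 p53-246 lymphomas lie below the 6 p53-null lymphomas for Rpa2 and overlap with them for Gins1 and Fen1.

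The level of the whole set varied between lymphomas of a genotype. The p53-246 lymphomas 6 and 2 had the lowest means over the set, 7.89 and 7.91, and held the lowest value of all 12 lymphomas in 21 and 19 of the 48 genes. The next mean was 8.13 in p53-null lymphoma 1, which held the lowest value of its own group in 25 genes, and the other 9 lay from 8.26 to 8.46. The same 3 lymphomas had the lowest means of the proliferation markers, 8.74, 8.81 and 8.79, against 8.84 to 9.05 in the others. Without p53-246 lymphoma 6, the narrow array, the median difference between lymphoma genotypes was -0.07, and without p53-246 lymphoma 2 it was -0.08. The median within-group SD of a replication gene among lymphomas was 0.27, the same as for all genes above the background cutoff in lymphomas (0.27). It was smallest for Orc3 (0.13) and largest for Mcm7 (0.52) and Gins2 (0.49).

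Normal B cells of the genotypes (2 and 2) differed in no replication gene past the threshold. The differences had a median of 0.09, beside 0.0085 for all genes, and 33 of 48 were positive, while 7676 of all 14860 genes were. Without p53-null normal sample 1 the median was 0.05 and 12 genes changed sign, and with array spread as a covariate it was also 0.05 with 4 sign changes. The smallest p belonged to Chek1 (0.30, SE 0.21), Dbf4 (0.31, SE 0.22) and Orc3 (0.21, SE 0.16), all with an adjusted p of 0.999 in limma. Dbf4 values were 6.49 and 6.88 (p53-null) and 6.94 and 7.04 (p53-246), and Orc3 had 9.35 and 9.47 against 9.56 and 9.68. The p53-246 samples lay above in both genes, as they did in 13 of the 48, and below in 2, where 18% and 11.7% of all genes are so placed. In limma 0 of all genes passed, and 0 of the set and 3.4% of all genes had an unadjusted p under 0.05. The median 95% interval reached 0.53 to either side, so with 2 samples a group the intervals leave room for differences of that size.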

How the data were processed

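RNA of 16 B cell samples was labelled with biotin and hybridised to arrays, 1 per sample. The deposited values are read as log2 intensities per transcript cluster (2.51 to 13.5); the log base, summary, background treatment and normalization are not given in the sources used here, so depth and detection calls are unknown and the number of arrays limits precision. Partek 6.5 and mm8 are named per the submitters' processing notes, with no step for either; a mixed model ANOVA is the submitters' stated test.

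Of 23332 transcript clusters 14996 carry 1 gene symbol in the platform's table, 1019 several and 7317 none. Each gene was tested by its brightest single-symbol row, 14860 in all, and 14941 identifiers matched RefSeq's GRCm38.p6 table, used for names and promoters. A linear model with a mean per group was fitted to all 16 arrays in R 4.3.3 with limma 3.58.1, moderated by empirical Bayes and adjusted by Benjamini-Hochberg over all genes, two-sided, threshold 0.05. SE are moderated. The fit was tested on simulated data. All 48 genes are named by role, with values for the largest and smallest difference of each role and for the 3 smallest p of genotype comparisons. The genes and lists were chosen with earlier results of these data known. Pcna, Rfc2, Rpa3 and Lig1 have no single-symbol transcript cluster in the table of names used here. Alternatives covered scaling, array quality, filters, the model and leaving out samples. No 2 arrays were identical (highest correlation 0.99). The labels state no pairing by replicate number. Correlations of deviations between lymphomas of the same number ran from -0.31 to 0.33, and the best match had the same number for lymphomas 4 and 6 only. In normal cells, with 2 samples a group, this check cannot tell whether samples were paired.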

Additional observations from a re-analysis of the deposited data

Results flagged for a closer look

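In groups of 6 lymphomas, 9 of 96 gene and group pairs held 1 sample far from the others by Dixon's ratio, which is 9.38% of the pairs. Chance gives about 1 in 20, and over all genes on the same arrays 9.42% of 29720 pairs were so placed. All 9 were low values. In p53-null lymphoma 1 they were Mcm3 (8.47, next 9.10), Mcm6 (10.2, next 10.4), Gins2 (8.02, next 8.75) and Dtl (8.32, next 8.60). In p53-246 lymphoma 6, the array with the narrow spread, they were Orc4 (7.38, next 8.60), Pold3 (7.94, next 8.80) and Chek1 (9.29, next 9.70). The others were Pole in p53-246 lymphoma 2 (7.42, next 8.27) and Orc1 in p53-null lymphoma 2 (7.10, next 7.24). Of these 9 values, all but that of Orc4 lie above every normal sample of the gene.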

How the results depend on the processing

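The numbers of replication genes past the threshold stayed within 1.5 times of those reported in all 28 other settings. Leaving out 1 sample at a time gave 46 to 47 in lymphomas against normal cells, 44 to 47 in p53-null and 39 to 46 in p53-246 cells, and 0 in each genotype comparison and the interaction. A group left with 1 sample is then assumed to vary like the others. With both genotypes averaged, 1285 of 1295 values of single genes kept direction and side of the threshold; the rest were Pold1 and Orc4. Orc4 changed sign with centred arrays (0.0403), array weights (0.0456), the replicate block (0.16), with the arrays highest in T cell markers left out (0.0688, chosen after seeing the data), without p53-null normal sample 2 (0.0497) and without p53-246 lymphoma 6 (0.0609), and not in the other 14 fits without 1 sample (lowest -0.17). Centring moved the median of all genes from -0.09 to 0.0088 and that of the set from 2.22 to 2.32. The background moved more: the p53-null comparison called 2856 of all genes (4737 reported) once normal sample 1 was left out, and the p53-246 comparison (3738) called 2418 or 2407 without normal sample 1 or 2 and 6180 with array weights. In normal genotypes 532 of all genes passed without p53-null sample 2, 4 without p53-246 sample 1 and 479 without the arrays highest in T cell markers, and in the interaction 473, 2 and 402, with 0 replication genes in each. The replicate block gave 46, 46 and 42 replication genes in lymphomas against normal cells with genotypes averaged, in p53-null and in p53-246 cells, with Pold1 lost in the first (0.24, adjusted p = 0.19), and 0 elsewhere; the numbers share no stated source. The filter on dim genes removed Fen1. Array number and values near background limit small differences and folds.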

Other observations

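E2F motifs were also counted in the promoters of genes outside the replication set. They were present in 71 of 1081 windows (6.57%) of other genes that were higher by 2-fold or more in lymphomas, and in 309 of 10773 (2.87%) of the remaining genes. The share in the replication genes was 42.5% (17 of 40). These shares were computed after the differences were known and carry no test.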
